A study of Mus musculus with 15 samples.

Results

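The 8 genes described here encode the mouse enzymes that place, copy and remove methyl groups on cytosine, together with the factor that guides the copying enzyme. They were chosen by symbol as *Dnmt1*, *Dnmt3a*, *Dnmt3b*, *Uhrf1*, *Tet1*, *Tet2*, *Tet3* and *Tdg*, and make up 8 of the 21669 genes with a symbol in the deposited RNA-seq table. Expression was measured in wild-type female C57BL/6J mice aged 6 to 9 weeks, with no engineered allele in any group, in naive B cells (nB), which are splenic cells left after CD43+ cells were depleted, and in cells grown from them. Cultures received LPS, Il2 and Il5 for 3 days with either the vehicle DMSO or 2 μM GSK343, an inhibitor of the histone H3 lysine 27 methyltransferase EZH2, and were sorted into B220+GL7+CD138- activated B cells (actB) and CD138+ plasmablasts (Pb). The labels of the 3 Pb libraries grown with GSK343 name Il6 in place of Il5, so the inhibitor and this labelled difference in cytokine cannot be told apart in Pb. Each of the 5 groups was deposited as 3 libraries, but nB replicates 1 and 2 differed by less than the sampling noise and were counted as 1 library, which leaves 2 nB libraries and 14 in all. The labels give only the replicate number, so p-values measure the spread between these libraries, which may be partly technical.

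DNA methylation at CpG dinucleotides is set by *Dnmt3a* and *Dnmt3b*, which can act on unmethylated DNA, and is copied onto the new strand after replication by *Dnmt1*, which *Uhrf1* brings to hemimethylated CpG. *Tet1*, *Tet2* and *Tet3* encode dioxygenases that oxidise 5-methylcytosine, and *Tdg* encodes the glycosylase that excises the most oxidised forms so that base excision repair can restore cytosine. A cell that divides without maintenance loses methylation passively, whereas TET and TDG activity removes it actively, and B cells are known to lose methylation as they divide and become plasma cells. The comparisons address how far mRNA for these enzymes differed between naive, activated and plasmablast stages, and whether inhibition of EZH2 moved it.

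The libraries held 19421830 to 26307413 reads over genes, and a count of 3 reads corresponded to 0.114 to 0.1545 reads per 1000000 counted (RPM). Stage markers followed the labels: summed B cell marker RPKM (reads per kilobase of gene length and 1000000 counted reads) was 4519 to 4631 in nB, 2067 to 2421 in actB with DMSO and 946.8 to 977.1 in Pb with DMSO, and all 8 plasmablast markers were higher in Pb than in actB. *Sdc1*, which encodes CD138, averaged 29.7 RPKM in Pb and 0.665 RPKM in actB with DMSO. The nB libraries also carried transcripts of other blood cells. Summed myeloid markers were 196 to 241 RPKM in nB against 4.18 to 5.47 RPKM in actB with DMSO, and summed T and NK cell markers were 46.0 to 48.1 RPKM against 3.96 to 5.31 RPKM. None of these markers lacked reads in every library of the series, and absence within a single group was not counted. Erythroid and platelet markers summed to 33.8 to 141 RPKM in nB against 9.21 to 12.9 RPKM in actB with DMSO. The part of these cells in the differences from nB was not tested. In bulk RNA, fewer cells of a type and less RNA per cell cannot be told apart. RPKM is relative to the counted reads of a library, so rises and falls between stages below are relative. RNA content per cell was not measured, so they need not be changes in mRNA per cell.

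Gene spans below are from the GENCODE annotation of the mm9 build, and counts cover all exons of a gene. Of the 8 genes, 7 passed the filter on low values (at least 1 RPKM in 3 of the deposited columns). *Tet1* did not reach 1 RPKM in any library and rests on 19 to 196 reads, so its tests come from a fit without that filter. Differences below are in log2(RPKM + 0.25), with limma's standard error (SE) and a Benjamini-Hochberg adjusted p over all genes tested, and a gene was called where that p was under 0.05. The plot of levels by library shows that the genes followed different courses: *Uhrf1* varied most, 16.4-fold between its highest and lowest group means, and *Dnmt3b* least, 1.61-fold.

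**Figure D1:**
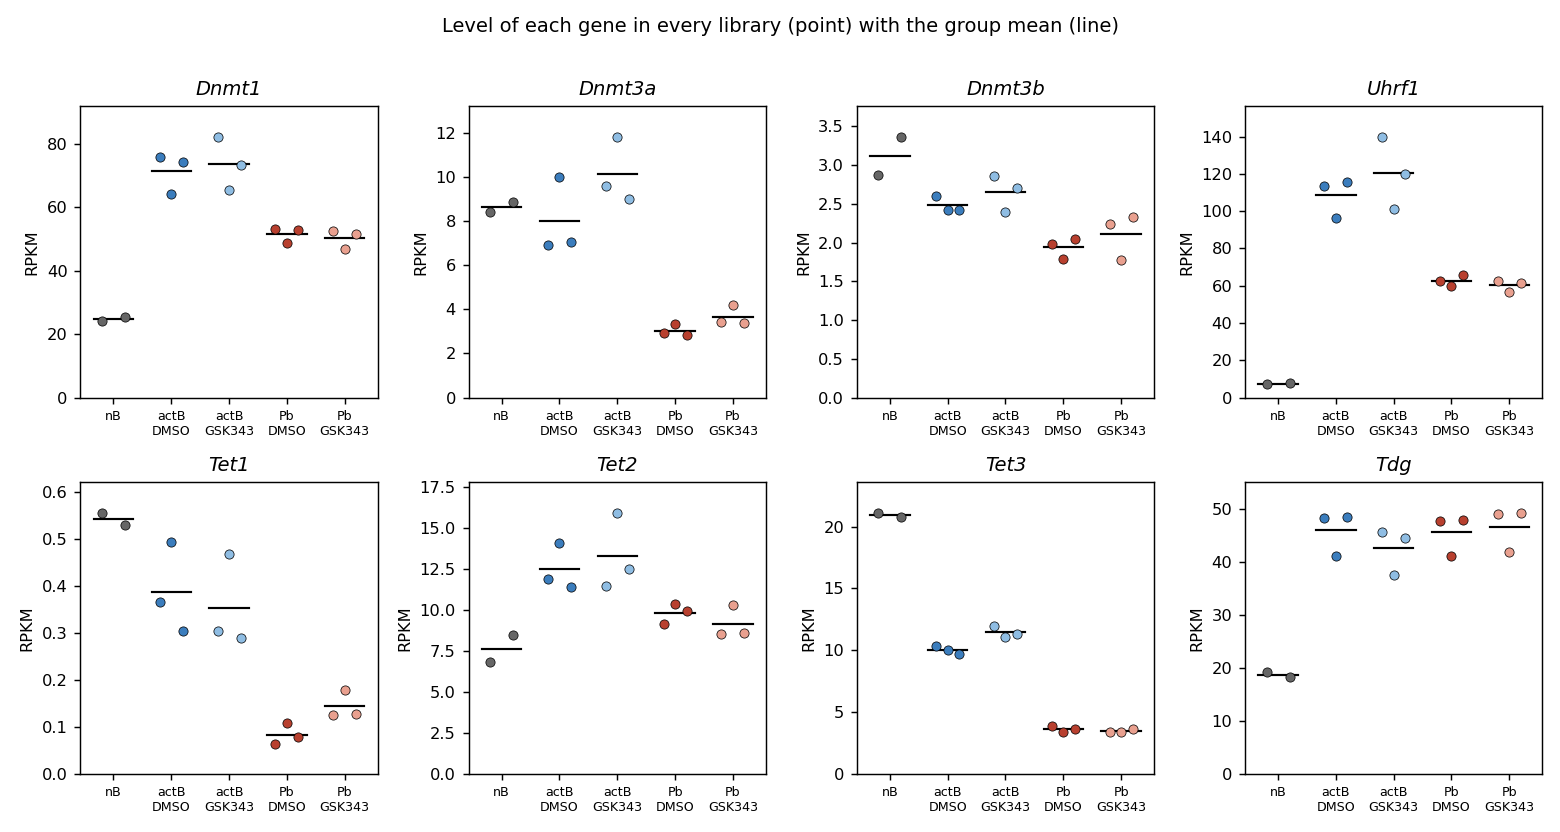
Level of each of the 8 genes in RPKM (linear axis from 0) in every library, by group. Points are libraries (2 for nB, 3 for the other groups) and lines are group means. *Uhrf1*, *Dnmt1* and *Tdg* were lowest in nB, *Tet3* was highest in nB and lowest in Pb, and *Dnmt3a* was lowest in Pb.

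The maintenance pair rose sharply from nB to actB and then fell back in part in Pb. *Dnmt1* (chr9:20711650-20757317, minus strand, mm9) measured 24.1 and 25.5 RPKM in nB. Its levels were 75.8, 64.1 and 74.1 RPKM in actB with DMSO and 53.1, 48.6 and 52.7 RPKM in Pb with DMSO. The 3 stages did not overlap, and *Dnmt1* was the most abundant of the 3 methyltransferases in every library. Relative to nB it was higher in actB by 1.51 (SE 0.096, adjusted p = 1.7e-08) and in Pb by 1.05 (SE 0.096, adjusted p = 3.9e-07). From actB to Pb it fell by 0.47 on the log2 scale (SE 0.086, adjusted p = 3.5e-04). In order of mean level the groups ran actB with GSK343, actB with DMSO, Pb with DMSO, Pb with GSK343 and nB, and within each cell type the ranges of DMSO and GSK343 libraries overlapped.

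*Uhrf1* (chr17:56442744-56462909, plus strand, mm9), which reads hemimethylated CpG and marks histone H3 for *Dnmt1* recruitment, had the widest range of the 8 genes. It measured 6.99 and 7.70 RPKM in nB. In actB with DMSO it reached 113.2, 96.4 and 115.6 RPKM, and in Pb with DMSO 62.6, 60.02 and 65.6 RPKM. Every actB library exceeded every Pb library, and every Pb library exceeded both nB libraries several times over. The rise from nB to actB was 3.84 (SE 0.12, adjusted p = 2.1e-11), a 14.3-fold change on this scale. *Uhrf1* then fell by 0.78 from actB to Pb (SE 0.10, adjusted p = 2.3e-05) and remained 3.05 above nB (SE 0.12, adjusted p = 7.4e-11). The ratio of *Uhrf1* to *Dnmt1* RPKM went from 0.296 ± 0.0086 (SD, n = 2) in nB to 1.52 ± 0.035 (SD, n = 3) in actB and 1.219 ± 0.035 (SD, n = 3) in Pb, with no overlap between the stages.

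The upstream sequences of this pair are shown because the 2 genes rose together and because E2F sites and CCAAT boxes, the latter bound by NF-Y, are known promoter elements of genes induced in dividing cells. Windows are the 250 bases before an annotated RefSeq start (GRCm38.p6, another build than the mm9 gene coordinates above), 5′ to 3′ on the gene's strand, and all 8 genes matched with 13 starts in all. One of 2 *Uhrf1* starts and one of 3 *Dnmt1* starts is shown. The *Dnmt1* start shown is the most downstream of the 3. Transcripts from the other starts may include its window, so its matches need not lie in a promoter. Capitals mark matches to TTCCCGC or TTGGCGC, which are E2F-type words, or to CCAAT, each searched on both strands, where TTGGCGC can overlap a reverse CCAAT.
*Uhrf1* chr17:56303087-56303336, plus strand: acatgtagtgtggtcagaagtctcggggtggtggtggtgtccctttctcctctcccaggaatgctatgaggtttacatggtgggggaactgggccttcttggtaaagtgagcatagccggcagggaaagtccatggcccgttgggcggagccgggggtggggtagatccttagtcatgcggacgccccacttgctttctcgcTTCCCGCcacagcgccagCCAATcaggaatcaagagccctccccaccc
*Dnmt1* chr9:20952624-20952873, minus strand: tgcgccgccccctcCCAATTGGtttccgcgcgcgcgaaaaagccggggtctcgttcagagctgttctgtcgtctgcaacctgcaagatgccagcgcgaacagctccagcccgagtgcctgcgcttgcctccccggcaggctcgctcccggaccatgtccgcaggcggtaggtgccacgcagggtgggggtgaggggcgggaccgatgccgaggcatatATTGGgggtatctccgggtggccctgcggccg
TTCCCGC occurred in 3.82% of all 32851 promoter windows and, among the 13 windows of the 8 genes, in 1, that of *Uhrf1*, 48 to 42 bases before the start. TTGGCGC occurred in 1.97% of all windows and in 0 of the 13. CCAAT occurred in 33.8% of all windows and in 6 of the 13, which belong to *Uhrf1*, *Dnmt1*, *Tdg* and *Tet3*. In the *Dnmt1* window shown, a forward and a reverse CCAAT overlap by 2 bases. Other forms of the E2F site were not searched, so a window without these words may still hold one. A match of these letters is a description of the sequence and not evidence that a factor binds there.

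The de novo methyltransferases did not follow *Dnmt1*. *Dnmt3a* (chr12:3806007-3914443, plus strand, mm9) measured 8.40 and 8.85 RPKM in nB. Its levels were 6.93, 10.02 and 7.07 RPKM in actB with DMSO and 2.91, 3.36 and 2.82 RPKM in Pb with DMSO. The nB and actB ranges overlapped, and all Pb libraries lay below both. From nB to actB the difference was -0.12 (SE 0.16, adjusted p = 0.49), and with the replicate number as a block it was -0.24 and called (adjusted p = 0.013). That block took the merged nB library, which stands for replicates 1 and 2, as number 1. *Dnmt3a* fell by 1.32 from actB to Pb (SE 0.14, adjusted p = 4.2e-06) and differed between Pb and nB by -1.44 (SE 0.16, adjusted p = 2.8e-06). It was highest in actB with GSK343, and its order below that was nB, actB with DMSO, Pb with GSK343 and Pb with DMSO, where only nB and actB with DMSO overlapped as neighbours.

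*Dnmt3b* (chr2:153475186-153513466, plus strand, mm9) was the least abundant methyltransferase, with 156 to 339 reads a library. Its nB levels were 2.88 and 3.36 RPKM. It measured 2.61, 2.42 and 2.42 RPKM in actB with DMSO and 1.98, 1.79 and 2.04 RPKM in Pb with DMSO. The stages stepped down without overlap, by small amounts. *Dnmt3b* fell by 0.30 from nB to actB (SE 0.12, adjusted p = 0.035), by 0.32 from actB to Pb (SE 0.11, adjusted p = 0.016) and by 0.62 from nB to Pb (SE 0.12, adjusted p = 3.3e-04). The first difference was no longer called without nB replicate 3 (adjusted p = 0.25), nor without actB with DMSO replicate 2 (0.073) or 3 (0.078), after quantile normalization (0.068) or without a filter (0.055). The second was no longer called without Pb with DMSO replicate 2 (0.062) or actB with DMSO replicate 1 (0.055), nor after scaling on the median gene (-0.21, adjusted p = 0.077), after quantile normalization (0.19) or with edgeR and RLE factors (0.068).

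Summed over the 3 genes, methyltransferase mRNA was 35.4 to 37.7 RPKM in nB, 76.5 to 85.3 RPKM in actB with DMSO and 53.8 to 58.0 RPKM in Pb with DMSO. *Dnmt1* made up 67.9% ± 0.36 (SD, n = 2) of it in nB, 87.1% ± 2.9 (SD, n = 3) in actB and 91.2% ± 0.65 (SD, n = 3) in Pb. The share of *Dnmt3a* went the other way, from 23.6% ± 0.19 (SD, n = 2) to 9.89% ± 2.8 (SD, n = 3) and 5.38% ± 0.74 (SD, n = 3). The 3 stages did not overlap in any of these quantities. An exact permutation test cannot go below p = 0.1 for 3 against 3 libraries or p = 0.2 for 2 against 3, so sums, shares and ratios are given as descriptions.

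The TET genes shifted from *Tet3* to *Tet2*. *Tet3* (chr6:83312367-83391672, minus strand, mm9) was the main TET transcript in nB, at 21.1 and 20.7 RPKM. It measured 10.3, 10.02 and 9.70 RPKM in actB with DMSO and 3.90, 3.39 and 3.63 RPKM in Pb with DMSO. Each step took it to a range of its own, and libraries of a group differed little. *Tet3* fell by 1.04 from nB to actB (SE 0.067, adjusted p = 2.0e-08) and by 1.40 from actB to Pb (SE 0.060, adjusted p = 8.8e-10). Between Pb and nB the difference was -2.445 (SE 0.067, adjusted p = 4.1e-12), or 0.184-fold of the nB level on this scale. Its upstream window is shown as that of a gene that fell on activation, where *Uhrf1* and *Dnmt1* rose, with the same marking of capitals.
*Tet3* chr6:83441679-83441928, minus strand: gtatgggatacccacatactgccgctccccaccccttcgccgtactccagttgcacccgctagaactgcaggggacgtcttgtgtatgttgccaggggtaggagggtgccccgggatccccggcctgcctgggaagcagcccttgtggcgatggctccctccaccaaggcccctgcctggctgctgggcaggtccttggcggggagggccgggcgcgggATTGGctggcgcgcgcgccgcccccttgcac
The window holds 1 reverse CCAAT, 31 to 27 bases before the start, and neither E2F-type word.

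*Tet2* (chr3:133126643-133207354, minus strand, mm9), the member of the family known as a tumour suppressor in blood cells, rose on activation. It measured 6.85 and 8.45 RPKM in nB. Its levels were 11.9, 14.1 and 11.4 RPKM in actB with DMSO and 9.18, 10.4 and 9.96 RPKM in Pb with DMSO. The actB libraries were highest, and Pb libraries lay between actB and nB without overlap. *Tet2* rose by 0.69 from nB to actB (SE 0.14, adjusted p = 7.5e-04), a difference called under every alternative tried. The fall of 0.33 from actB to Pb (SE 0.13, adjusted p = 0.036) was smaller. It was not called with edgeR (-0.28, adjusted p = 0.065), without a filter (0.059), after scaling on the median gene (-0.22, adjusted p = 0.16) or without Pb with DMSO replicate 1 (0.11) or 3 (0.065) or actB with DMSO replicate 1 (0.051) or 2 (0.13). The excess of 0.36 in Pb over nB (SE 0.14, adjusted p = 0.035) was not called without the merged nB library (0.21, adjusted p = 0.30) or without Pb with DMSO replicate 2 (0.089) or 3 (0.070).

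*Tet1* (chr10:62267318-62361866, minus strand, mm9) had the lowest RPKM of the 8 genes, with 19 to 196 reads a library over 15326 bases. It was listed at 0.555 and 0.530 RPKM in nB. In actB with DMSO it was at 0.367, 0.495 and 0.304 RPKM (133, 183 and 113 reads), and in Pb with DMSO at 0.0637, 0.109 and 0.0784 RPKM (19, 34 and 25 reads). All Pb libraries lay below all actB libraries, which lay below both nB libraries. In the fit without a filter, which called 46.4% of 18752 genes from actB to Pb, *Tet1* fell by 0.93 (SE 0.13, adjusted p = 9.3e-05). The pseudocount of 0.25 RPKM compresses so low a gene, and edgeR on the reads gave a fall of 2.15 on the log2 scale (adjusted p = 9.5e-06). From nB to Pb, where that fit called 63.9% of genes, it fell by 1.25 (SE 0.15, adjusted p = 1.1e-05). From nB to actB, with 59.8% of genes called, the difference of -0.32 was not called (adjusted p = 0.074), but was called with the replicate block (-0.41, adjusted p = 0.0021) and without actB with DMSO replicate 2 (-0.44, adjusted p = 0.020). The block here also took the merged nB library as number 1.

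Together the TET genes summed to 28.5 to 29.7 RPKM in nB, 21.4 to 24.6 RPKM in actB with DMSO and 13.1 to 13.9 RPKM in Pb with DMSO. *Tet3* supplied 71.9% ± 3.0 (SD, n = 2) of the sum in nB, 43.9% ± 2.7 (SD, n = 3) in actB and 26.9% ± 2.7 (SD, n = 3) in Pb. *Tet2* supplied 26.2% ± 3.1 (SD, n = 2), 54.4% ± 2.5 (SD, n = 3) and 72.5% ± 2.5 (SD, n = 3). In the DMSO libraries *Tet2* thus replaced *Tet3* as the leading TET transcript by the activated stage. The ratio of *Tet2* to *Tet3* ranged from 0.325 to 0.408 in nB, from 1.16 to 1.41 in actB with DMSO and from 2.35 to 3.07 in Pb with DMSO. In actB with GSK343 it ranged from 0.961 to 1.43, and *Tet3* exceeded *Tet2* in replicate 1 (11.9 against 11.4 RPKM).

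**Figure D2:**
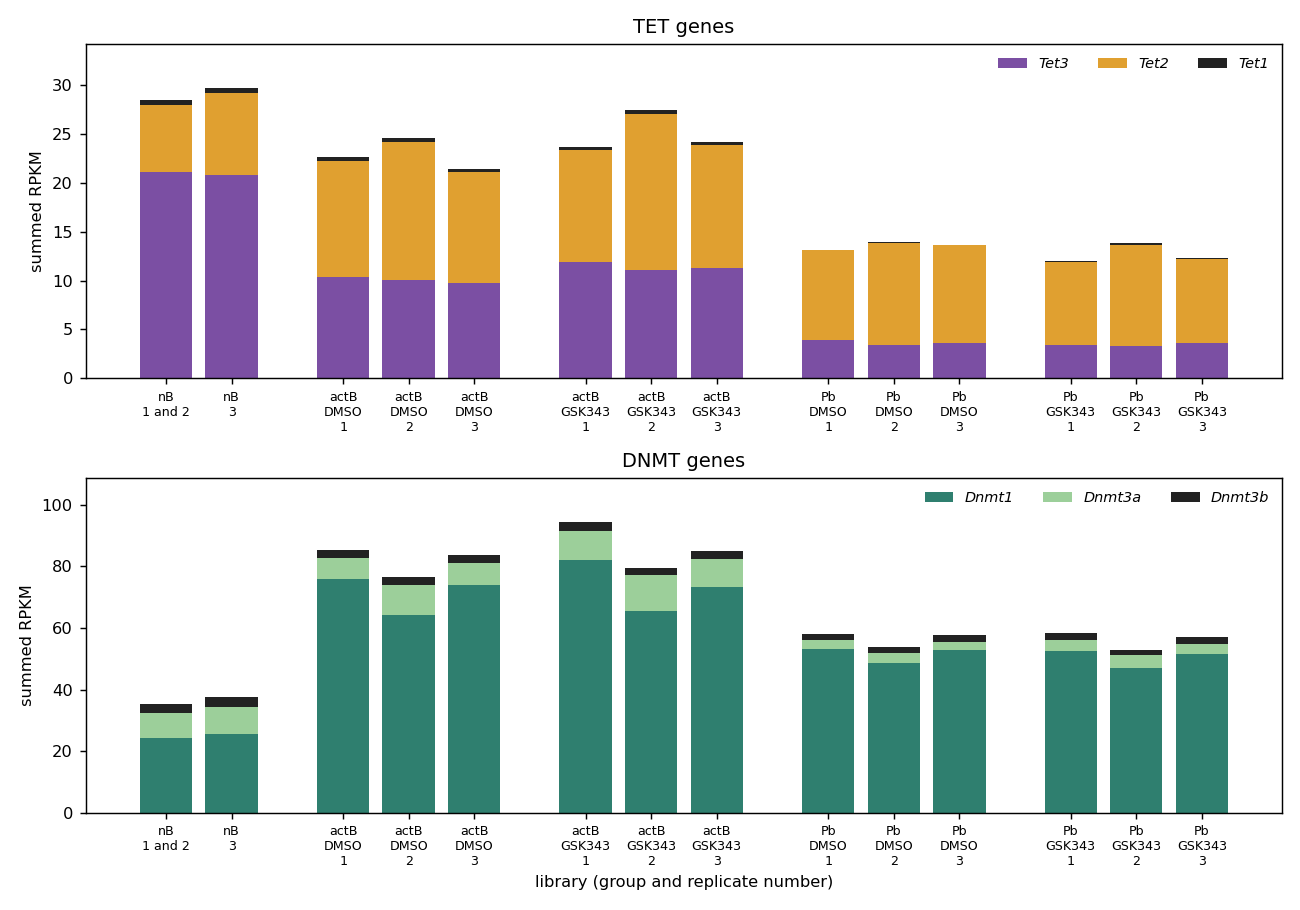
Summed RPKM of the TET genes (top) and the DNMT genes (bottom) in each library, stacked by gene, on linear axes from 0. The TET sum stepped down from 28.5 to 29.7 RPKM in nB to 13.1 to 13.9 RPKM in Pb with DMSO while the *Tet3* part shrank, and the DNMT sum was highest in actB and consisted mostly of *Dnmt1*.

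*Tdg* (chr10:82092573-82113544, plus strand, mm9), the glycosylase downstream of the TET enzymes, rose on activation and stayed up. It measured 19.1 and 18.3 RPKM in nB. Its levels were 48.3, 41.0 and 48.4 RPKM in actB with DMSO and 47.7, 41.1 and 47.9 RPKM in Pb with DMSO. The actB and Pb ranges covered each other, and both lay wholly above nB. *Tdg* was higher than in nB by 1.28 in actB (SE 0.11, adjusted p = 2.5e-07) and by 1.27 in Pb (SE 0.11, adjusted p = 1.8e-07). Between actB and Pb the difference was -0.01, with a 95% confidence interval of -0.22 to 0.20 (adjusted p = 0.93). Exons of *Glt8d2* on the other strand overlap 367 of 5374 exonic *Tdg* bases (6.83%), and whether strand was used in counting is not given in the sources used here, but *Glt8d2* itself was listed at only 0.124 to 0.502 RPKM. The overlap of *Dnmt3a* with *Gm10485* on the other strand covers 133 of 16642 exonic bases (0.799%). The *Tdg* window, shown as that of another gene that rose on activation, holds 1 reverse CCAAT, 45 to 41 bases before the start.
*Tdg* chr10:82629588-82629837, plus strand: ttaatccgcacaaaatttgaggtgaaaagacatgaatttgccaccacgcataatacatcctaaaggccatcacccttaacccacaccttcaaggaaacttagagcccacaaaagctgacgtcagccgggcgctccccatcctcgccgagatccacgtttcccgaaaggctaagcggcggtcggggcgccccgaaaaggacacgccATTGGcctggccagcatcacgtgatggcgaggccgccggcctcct
Over the 13 windows the count of CpG dinucleotides ran from 2 to 51, against a median of 6 over all windows. The highest count was in the *Tet2* window, and the lowest was at 1 of the 3 *Dnmt1* starts, where another has 26.

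From nB to actB with DMSO, 4 of the 7 tested genes were higher (*Dnmt1*, *Uhrf1*, *Tet2*, *Tdg*) and 2 were lower (*Dnmt3b*, *Tet3*). Across all 11299 genes tested, 77.2% were called, 40.9% higher and 36.3% lower, so a call by itself says little here and the sizes carry the information. From actB to Pb with DMSO, 6 of the 7 were lower and 0 higher, against 69.7% of all genes called, 42.4% lower and 27.3% higher. The median of all genes in that step was -0.12, against -0.47 for the 7 genes. Scaling on the median gene moved the share of higher genes among those called from 39.2% to 49.4%, and under it *Dnmt3b* and *Tet2* were not called. From nB to Pb with DMSO, all 7 tested genes were called, 4 higher and 3 lower, against 80.6% of all genes (39.5% higher, 41.1% lower).

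**Figure D3:**
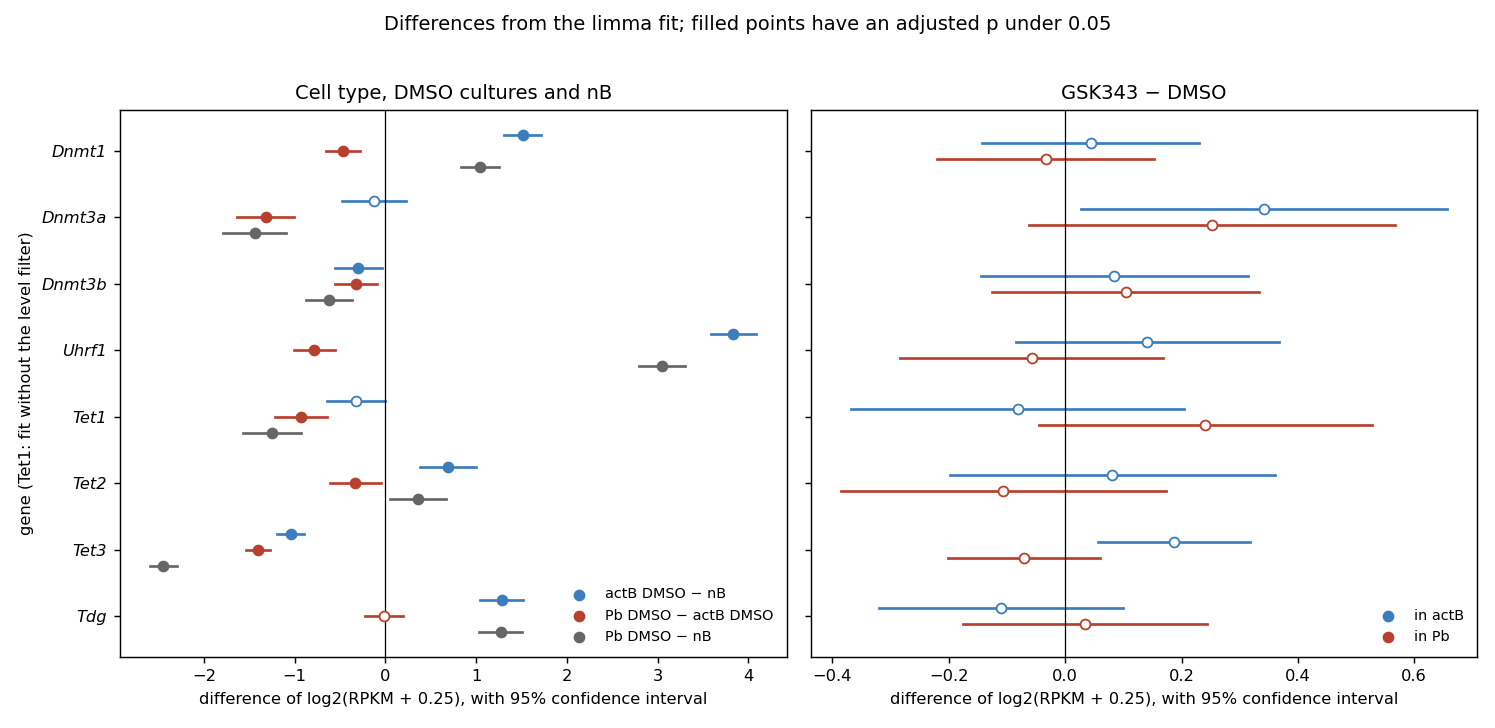
Differences of log2(RPKM + 0.25) from the limma fit with 95% confidence intervals, for cell type comparisons (left) and GSK343 minus DMSO (right, narrower axis), with filled points where the adjusted p is under 0.05. On the left *Uhrf1* lies farthest to the right (3.84) and *Tet3* farthest to the left (-2.445), and on the right no point is filled.

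Proliferation differed strongly between nB and the cultures, and its values stand beside those of the maintenance pair. All 18 proliferation markers were higher in actB with DMSO than in nB (median 4.12), and their summed level was 178 to 182 RPKM in nB, 1427 to 1755 RPKM in actB and 1518 to 1666 RPKM in Pb. Between actB and Pb the summed level overlapped, with 3 markers higher and 6 lower in Pb. Set against that sum, *Dnmt1* was 13.8% ± 0.35 (SD, n = 2) in nB, 4.37% ± 0.14 (SD, n = 3) in actB and 3.19% ± 0.016 (SD, n = 3) in Pb. *Uhrf1* was 4.08% ± 0.22 (SD, n = 2), 6.64% ± 0.11 (SD, n = 3) and 3.88% ± 0.11 (SD, n = 3) of it. The part of proliferation in the differences of both genes was not tested.

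The libraries numbered 2 stood apart from numbers 1 and 3 in most of these genes, in both cell types and both treatments. Against the mean of the other 2 libraries of the group, *Uhrf1*, *Dnmt1* and *Tdg* were lowest there, by -14.5% to -22.2% in actB and by -6.35% to -14.5% in Pb. *Dnmt3a*, *Tet1* and *Tet2* were highest, by 20.8% to 57.8% in actB and by 8.74% to 52.6% in Pb. *Tet3* differed less in actB, by 0.15% with DMSO and by -4.5% with GSK343, and by -10.0% and -3.95% in Pb.

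GSK343 moved none of the 7 tested genes past the threshold in limma without the replicate block. In actB 0 of the 7 tested genes were called, against 10.4% of all genes, and in Pb 0 of 7 against 12.9%. At an unadjusted p under 0.05, 2829 and 3045 of all genes passed, and among the 7 genes *Dnmt3a* and *Tet3* did in actB. edgeR without the block called 0 of the 7 in either cell type, against 11.1% (actB) and 13.4% (Pb) of its genes. When the replicate number entered limma as a block, it called 3 of the 7 in actB (*Dnmt3a*, *Tet3*, *Tdg*), against 20.5% of all genes, and 1 of the 7 in Pb (*Dnmt3a*), against 23.5%. edgeR with the block called the same numbers, 3 and 1, against 24.9% and 25.6% of its genes. Stage markers differed with GSK343 as well: 4 of 8 plasmablast markers were higher in actB and 4 of 10 B cell markers were lower in Pb. In actB 2 of 7 tested myeloid markers were also higher, with a summed level of 8.34 to 14.2 RPKM against 4.18 to 5.47 RPKM with DMSO. The part of these markers in the values below was not tested. *Dnmt1* measured 82.1, 65.4 and 73.5 RPKM in actB with GSK343, a difference from DMSO of 0.04 with a 95% confidence interval of -0.14 to 0.23. In Pb with GSK343 it measured 52.6, 46.9 and 51.5 RPKM, a difference of -0.03 (-0.22 to 0.15). *Uhrf1* was at 139.7, 101.0 and 120.0 RPKM in actB with GSK343 and at 62.7, 56.9 and 61.3 RPKM in Pb with GSK343. Its differences were 0.14 (-0.08 to 0.37) and -0.06 (-0.28 to 0.17). For both genes the DMSO and GSK343 libraries overlapped in each cell type.

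*Dnmt3a* was the only one of the 8 genes that lay higher with GSK343 in all 3 replicate numbers of both cell types. How many of all genes did so was not counted. It measured 9.60, 11.8 and 9.003 RPKM in actB with GSK343 and 3.41, 4.22 and 3.36 RPKM in Pb with GSK343. In each replicate number the GSK343 library exceeded the DMSO library of the same cell type, by 0.23 to 0.46 in actB and by 0.21 to 0.31 in Pb. The difference was 0.34 in actB (SE 0.14, adjusted p = 0.16), where the groups overlapped because of the high number 2 DMSO library, and 0.25 in Pb (SE 0.14, adjusted p = 0.30), where they did not. With the replicate number as a block both were called (adjusted p = 0.0049 for the actB difference and 0.018 for that in Pb). Without the block and without each library in turn, the actB difference ran from 0.23 to 0.51 and was called only without actB with DMSO replicate 2 (0.51, adjusted p = 0.023), and without actB with GSK343 replicate 2 it was 0.23 (adjusted p = 0.37). In Pb it ran from 0.15, without Pb with GSK343 replicate 2 (adjusted p = 0.59), to 0.32 and was never called. With number 2 left out of every cultured group, an alternative added after the values were seen that called 15.4% of all genes in actB and 17.5% in Pb, it was called in actB (0.40, adjusted p = 0.0072) and not in Pb (0.22, adjusted p = 0.055).

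*Tet3* measured 11.9, 11.1 and 11.3 RPKM in actB with GSK343, all above the DMSO libraries. The difference was 0.19 (SE 0.060, adjusted p = 0.070) without the block and was called with it (adjusted p = 0.032). In Pb with GSK343 it was at 3.39, 3.36 and 3.60 RPKM, a difference of -0.07 (-0.20 to 0.06). *Tdg* measured 45.6, 37.6 and 44.5 RPKM in actB with GSK343, lower than DMSO in each of the 3 numbers. Its difference of -0.11 (adjusted p = 0.54) was called only with the block (adjusted p = 0.036). In Pb with GSK343 *Tdg* was at 48.9, 41.9 and 49.1 RPKM, a difference of 0.03 (-0.18 to 0.24).

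*Tet2* measured 11.4, 15.9 and 12.5 RPKM in actB with GSK343 and 8.52, 10.3 and 8.62 RPKM in Pb with GSK343. Its differences from DMSO were 0.08 (-0.20 to 0.36) and -0.11 (-0.39 to 0.17). *Dnmt3b* measured 2.86, 2.39 and 2.70 RPKM in actB and 2.24, 1.77 and 2.32 RPKM in Pb with GSK343, with differences of 0.08 (-0.15 to 0.31) and 0.10 (-0.13 to 0.33). Both genes overlapped their DMSO groups in each cell type. *Tet1* was at 0.305, 0.468 and 0.289 RPKM in actB with GSK343 (123, 177 and 104 reads) and at 0.126, 0.179 and 0.128 RPKM in Pb with GSK343 (44, 55 and 38 reads). Its Pb libraries with GSK343 all lay above those with DMSO, but the difference of 0.24 was not called (adjusted p = 0.37, in a fit that called 7.42% of genes in Pb and 5.54% in actB), nor was the 0.77 from edgeR (adjusted p = 0.11). With edgeR and the block, an alternative added after the values were seen, it was (0.77, adjusted p = 0.0050).

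For *Tet1*, *Tet3* and *Tdg* the differences had opposite signs in actB and Pb in all 3 replicate numbers. *Tet3* was higher with GSK343 in actB (0.14 to 0.22) and lower in Pb (-0.19 to -0.011). *Tdg* was lower in actB (-0.13 to -0.083) and higher in Pb (0.027 to 0.037). *Tet1* ran from -0.15 to -0.040 in actB and from 0.20 to 0.26 in Pb. Several of these values lie near 0, and how many of all genes had such signs was not counted. In limma the difference between the 2 effects was not called for *Tet3* (-0.26, SE 0.085, adjusted p = 0.32), *Tdg* (0.14, SE 0.14, adjusted p = 0.90) or *Tet1* (0.32, SE 0.18, adjusted p = 0.83). That interaction called 0 of the 7 tested genes in limma and in edgeR, with or without the block, against 0.248% of all genes in limma, 0.278% in edgeR, 1.58% in limma with the block and 2.31% in edgeR with it. The fit without a filter, used for *Tet1*, called 0.123%. At an unadjusted p under 0.05 it passed 1017 of all genes and, among the 7, *Tet3*. For *Tet1* it was called in edgeR with the block (0.94, adjusted p = 0.028) and not in edgeR without it (0.94, adjusted p = 0.51). The Il6 label of the Pb libraries with GSK343 applies to this interaction too, and its part cannot be told apart.

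**Figure D4:**
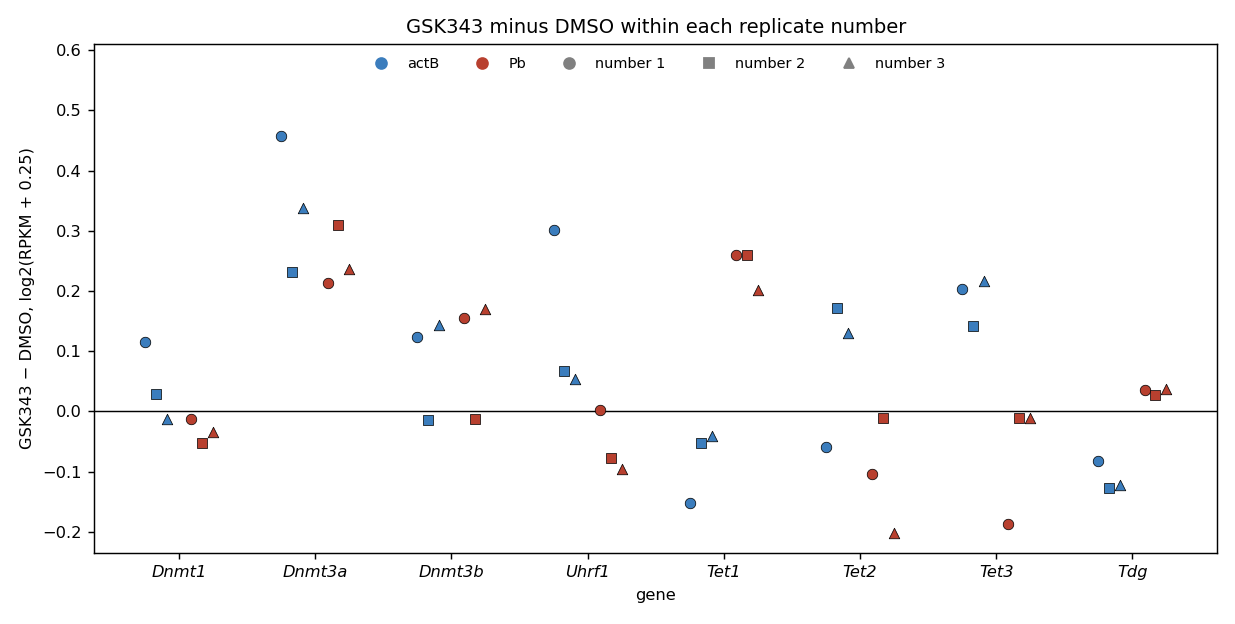
GSK343 minus DMSO in log2(RPKM + 0.25) within each replicate number, for actB (blue) and Pb (red), with a marker shape for each number. All 6 differences of *Dnmt3a* lie above 0 (0.21 to 0.46), and those of *Tet3*, *Tdg* and *Tet1* lie on opposite sides of 0 in actB and Pb. Those of *Tdg* in Pb (0.027 to 0.037) and some of *Tet3* in Pb and *Tet1* in actB lie near 0.

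The step from actB to Pb was also tested among the GSK343 libraries. The Pb libraries of this step are those labelled with Il6 in place of Il5. Cell type and labelled cytokine therefore cannot be told apart here. Of the 7 tested genes, 6 were lower and 0 higher, against 70.5% of all genes called (44.2% lower, 26.4% higher). *Tet3* fell by 1.66 (SE 0.060, adjusted p = 2.2e-10), *Dnmt3a* by 1.41 (SE 0.14, adjusted p = 2.2e-06) and *Uhrf1* by 0.98 (SE 0.10, adjusted p = 2.9e-06). *Dnmt1* fell by 0.54 (SE 0.086, adjusted p = 9.9e-05), *Tet2* by 0.52 (SE 0.13, adjusted p = 0.0030) and *Dnmt3b* by 0.30 (SE 0.11, adjusted p = 0.021). The call of *Dnmt3b* was lost with edgeR (adjusted p = 0.067), after scaling on the median gene (0.16) or quantile normalization (0.40), in a fit of the compared groups alone (0.062), and without Pb with GSK343 replicate 2 (0.10) or actB with GSK343 replicate 1 (0.080) or 3 (0.058). *Tdg* differed by 0.13 (SE 0.096, adjusted p = 0.23), and was not called in limma. It was called higher in Pb with the replicate block (adjusted p = 0.0029), after scaling on the median gene (0.27, adjusted p = 0.018), with edgeR (0.22, adjusted p = 0.049) and with number 2 left out (0.12, adjusted p = 0.027), and was 0.047 without actB with GSK343 replicate 2 (adjusted p = 0.68). *Tet1* fell by 0.61 in the fit without a filter (adjusted p = 0.0021), which called 47.2% of genes. The median of all genes in this step was -0.14, and scaling on the median gene moved the share of higher genes among those called from 37.4% to 49.7%.

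Partners of these enzymes were grouped into lists by function. Of 13 tested cofactors of methyltransferases and maintenance, 9 were higher and 0 lower in actB with DMSO than in nB (median 0.57, against 0.05 for all genes). Of all genes tested, 40.9% were higher and 36.3% lower in that step. From actB to Pb, 1 was higher and 11 were lower (median -0.36), against 27.3% and 42.4% of all genes. *Hells*, a chromatin remodeler needed for DNA methylation, averaged 6.77 RPKM in nB, 85.1 in actB with DMSO and 47.8 in Pb with DMSO. It rose by 3.60 (adjusted p = 1.9e-11) and then fell by 0.83 (adjusted p = 7.1e-06). *Cdca7*, which recruits HELLS, rose by 2.20 (adjusted p = 4.3e-09) and fell by 1.88 (adjusted p = 1.1e-08). *Uhrf2*, the paralog of *Uhrf1*, was the exception that rose at both steps, from 12.7 to 19.0 and 25.1 RPKM (0.57, adjusted p = 2.3e-06, then 0.40, adjusted p = 2.8e-05). *Pcna*, the replication clamp to which DNMT1 binds, rose by 1.40 (adjusted p = 1.7e-07) and did not pass the test from actB to Pb (-0.10, adjusted p = 0.41). *Usp7*, a deubiquitinase of DNMT1 and UHRF1, fell by 0.61 from actB to Pb (adjusted p = 7.7e-08). *Dnmt3l*, the cofactor of de novo methylation in germ cells, averaged 0.237 RPKM in nB and 0.0415 RPKM in actB and was below the filter.

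Genes of one-carbon metabolism and S-adenosylmethionine supply, the methyl donor route, were mostly higher in the first step and lower in the second. Of 14 tested, 12 were higher and 1 was lower in actB with DMSO than in nB (median 1.34), and from actB to Pb 1 was higher and 10 were lower (median -0.38). Over all genes tested, 40.9% were higher and 36.3% lower in the first step, and 27.3% higher and 42.4% lower in the second. *Mat2a*, which makes S-adenosylmethionine, rose by 0.70 (adjusted p = 3.6e-05) and fell by 0.66 (adjusted p = 3.1e-05). *Ahcy*, which clears its inhibitory product, rose by 1.92 (adjusted p = 1.2e-08) and fell by 0.49 (adjusted p = 0.0012). Among 8 readers of methylated CpG, 4 were higher and 3 lower from nB to actB, close to the shares over all genes. *Mbd2* fell by 0.54 at that step (adjusted p = 3.6e-06) and by 0.29 from actB to Pb (adjusted p = 4.0e-04), *Zbtb4* fell by 2.45 on activation (adjusted p = 8.7e-08), and *Zbtb38* rose by 0.92 from actB to Pb (adjusted p = 3.4e-06). *Mbd4*, a glycosylase for mismatched thymine, rose by 0.35 on activation (adjusted p = 0.0025).

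On the demethylation side, 7 of 12 tested partners and cofactor suppliers of TET enzymes were higher and 3 lower from nB to actB, and 4 were higher and 3 lower from actB to Pb. *Cxxc5*, a CpG-binding regulator of TET2, averaged 51.5 RPKM in nB and 6.56 RPKM in actB, falling by 2.94 (adjusted p = 8.1e-09). *Idh1* and *Idh2*, which make the 2-oxoglutarate that TET enzymes consume, rose on activation by 0.83 (adjusted p = 1.5e-06) and 0.66 (adjusted p = 2.1e-07), and *Idh2* rose again by 0.67 in Pb (adjusted p = 9.3e-08). *Ogt*, a sugar transferase that binds TET proteins, rose by 0.95 on activation (adjusted p = 4.6e-04). *Gadd45b* and *Gadd45a*, stress-induced genes, rose by 1.51 (adjusted p = 1.0e-07) and 0.90 (adjusted p = 4.5e-05) from actB to Pb. Among 14 tested genes of base excision repair, 7 were higher and 2 lower on activation, led by *Neil3*, which rose from 0.608 to 14.5 RPKM, and 4 were higher and 7 lower from actB to Pb. *Ung*, the uracil glycosylase, rose by 1.67 (adjusted p = 1.7e-07) and fell by 0.46 (adjusted p = 0.0045). All 4 cytidine deaminases were lower in Pb than in actB. *Apobec1* fell by 2.11 from actB to Pb (adjusted p = 3.9e-08). Of all genes, 77.2% were called from nB to actB (40.9% higher, 36.3% lower) and 69.7% from actB to Pb (27.3% higher, 42.4% lower). In the first step 10 of 12 TET partners and 7 of 8 readers were called, somewhat above that background. The 9 of 14 for base excision repair lay below it. With so few genes in a list, these shares are near the background. Counts and medians of these lists are descriptions, since no set was tested against other genes.

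**Figure D5:**
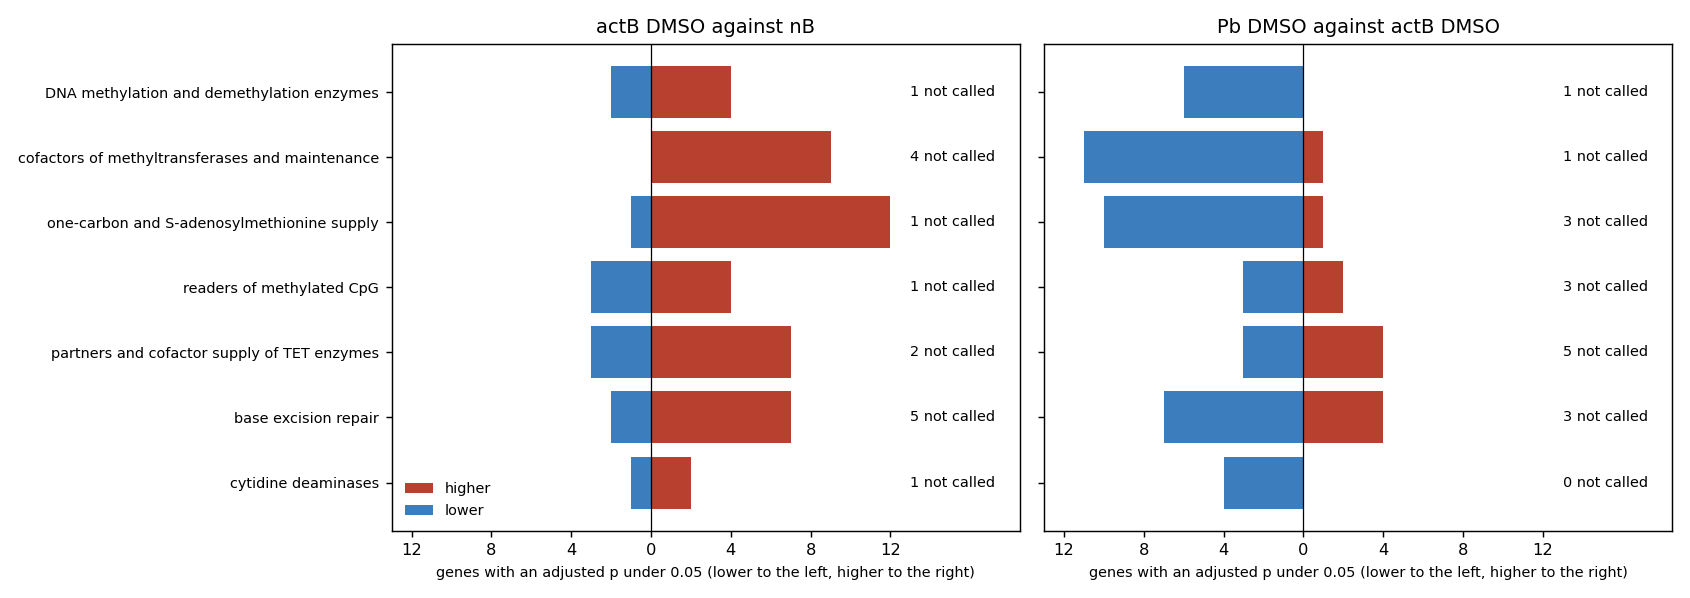
Number of genes with an adjusted p under 0.05 in each list, lower to the left and higher to the right, from nB to actB with DMSO (left panel) and from actB to Pb with DMSO (right panel), with the number not called beside the bars. Cofactors and one-carbon genes were mostly higher in the first step (9 of 13 and 12 of 14) and mostly lower in the second (11 of 13 and 10 of 14).

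With GSK343, each list had 0 to 2 called genes in each direction, of 4 to 14 tested, against 10.4% of all genes called in actB and 12.9% in Pb. *Gadd45g*, a relative of *Gadd45a*, rose from 7.72 to 16.2 RPKM in actB (1.05, adjusted p = 0.016), and in Pb the means were 11.0 RPKM with DMSO and 23.7 RPKM with GSK343 (1.09, adjusted p = 0.012). *Idh2* rose by 0.27 in actB (adjusted p = 0.0056) and 0.30 in Pb (adjusted p = 0.0025). *Neil3* rose by 0.33 in actB (adjusted p = 0.0066), where *Usp7* fell by 0.22 (adjusted p = 0.0080). *Xrcc1*, a scaffold of base excision repair, fell by 0.36 in actB (adjusted p = 0.0023) and in Pb (adjusted p = 0.0020). In Pb *Idh1* fell by 0.25 (adjusted p = 0.048) and *Apobec1* by 0.70 (adjusted p = 0.0075).

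Likeness was measured as the root mean square difference of centred log2 levels over the 14 libraries, against all 11299 tested genes. It depends on the size of changes as well as on their course. The nearest genes to *Dnmt1* were *Wdr76* (0.068) and *Ipo5* (0.070), and those nearest to *Uhrf1* were *Kif15* (0.17) and *Hells* (0.18). *Tet3* lay nearest to *Lyn* (0.072) and *Gpd2* (0.080), *Tdg* to *Pola2* (0.073) and *Nup85* (0.078), and *Dnmt3a* to *Tmem2* (0.13) and *Phlpp1* (0.15). For *Dnmt3b* they were *Snora30* (0.072) and *Polr3b* (0.074), and for *Tet2* *Zbtb26* (0.085) and *Dhdh* (0.094). By this distance none of the 7 genes had another of the 7 near it. Genes of like course but unlike range lie apart on it. *Dnmt1*, *Uhrf1* and *Tet2* had the same order of group means, but *Uhrf1* spanned 16.4-fold and *Dnmt1* 2.97-fold between group means. The closest ranks were 538 for *Dnmt1* among the neighbours of *Uhrf1* and 559 for *Dnmt3a* among those of *Tet3*. *Tet1* was not among the genes compared with the 7, and its own distance to *Dnmt3a* was 0.32.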

How the data were processed

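Poly(A) RNA-seq of nB, actB and Pb was analysed from the table the authors deposited. The authors aligned reads with TopHat2 to mm9 and counted reads over exons of Entrez genes with GenomicRanges, and the deposited values are reads per 1000000 reads counted in genes (RPM), although the table is named for RPKM. Whole reads were recovered for 100% of values (tolerance 0.0006 RPM), RPKM was computed with the deposited gene lengths, and 92 genes without a symbol (at most 0.0905% of reads) were left out. nB replicates 1 and 2 had a chi-square per degree of freedom of 0.00958, against at least 3.577 for other replicate pairs, and were merged. Differences were tested with limma 3.58.1 (trend) in R 4.3.3 on log2(RPKM + 0.25) over all groups with 9 residual degrees of freedom, for 11299 genes with at least 1 RPKM in 3 columns, with Benjamini-Hochberg adjustment over all of them.

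Deviations from group means correlated positively between all cultured libraries of the same replicate number, most for number 2, at 0.435 to 0.713. They correlated at 0.158 to 0.502 for number 1 and at 0.219 to 0.356 for number 3. The ranges for numbers 1 and 3 overlap that between different numbers, -0.603 to 0.37. Centring on group means ties that range to the others. It is therefore not an independent reference, and the overlap does not decide pairing. The labels do not say what a number marks. Alternatives were edgeR 4.0.16, run on whole reads for 11147 genes that reached 3 RPM, a replicate block, other pseudocounts, filters and scalings, and leaving out each library. In comparisons with nB the block took the merged nB library as number 1, although it stands for replicates 1 and 2. Pairing of nB with the cultures was not checked. Leaving out number 2, edgeR with the block and the combinations for *Tet1* were added after seeing the data. Named genes are the 8 enzymes, fixed partners, the 3 largest rises and 2 largest falls of the function lists in each comparison, and the 2 nearest profiles. Some genes that this rule names are not reported here. The 8 genes and the lists were chosen with earlier results of these data known. Steps were tested on simulated data. Intervals cover the spread between libraries, and read floors cover counting error only.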

Additional observations from a re-analysis of the deposited data

How the results depend on the processing

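With the replicate block, the number of the 7 tested genes called for GSK343 went from 0 to 3 in actB (*Dnmt3a*, *Tet3*, *Tdg*) and from 0 to 1 in Pb (*Dnmt3a*), and edgeR with the block gave 3 and 1, while calls over all genes rose in these fits as given below. With number 2 left out it was 1 in actB, where 1740 of 11299 genes were called, and 0 in Pb. Leaving out each library gave 0 to 1 in actB. In limma the block also called *Dnmt3a* and *Tet1* from nB to actB, where the merged nB library entered as number 1. It also called *Tdg* from actB to Pb under GSK343 and changed no other call of these genes. That *Tdg* difference was also called without a block, by edgeR (adjusted p = 0.049 with TMM, 0.015 with RLE), after median scaling (0.018) and with number 2 left out (0.027). In edgeR the block also turned *Tet1* with GSK343 in Pb (adjusted p from 0.11 to 0.0050) and its interaction (0.51 to 0.028). Leaving out each cultured library gave 5 to 6 of the 7 genes called from nB to actB, against 8369 to 8747 of all 11299 genes. From actB to Pb it gave 4 to 6, against 7340 to 7788 of all genes. From nB to Pb it gave 6 to 7, against 8802 to 8932. Under GSK343 it gave 5 to 6 from actB to Pb, against 7463 to 7796.

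Directions turned only for differences that were not called. *Tdg* from actB to Pb, -0.01, was 0.10 after median scaling, 0.043 after quantile normalization, 0.05004 with edgeR and TMM (0.0514 with the block), 0.10 with edgeR and RLE, and -0.089 to 0.062 without each library. *Dnmt3b* with GSK343 in actB was -0.040 after quantile normalization. Without each library, GSK343 differences in actB ran from -0.037 to 0.13 for *Dnmt1*, -0.21 to 0.035 for *Tet1* and -0.053 to 0.18 for *Tet2*, and in Pb from -0.074 to 0.017 for *Dnmt1* and -0.039 to 0.11 for *Tdg*. The interaction ran from -0.16 to 0.0037 for *Dnmt1*, -0.26 to 0.023 for *Dnmt3a* and -0.048 to 0.13 for *Dnmt3b*.

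Over all genes, GSK343 calls in actB were 1170, 386 with the compared groups alone, 2313 with the block, 2778 with edgeR and the block, and 608 to 1363 without each library. In Pb they were 1458, 2658, 2856 and 690 to 1304 for the same alternatives other than the groups alone. The interaction had 28 calls, 18 after quantile normalization, 4 with the groups alone, 178 with the block, 146 without number 2, 257 with edgeR and the block and 0 to 58 without each library. The share of higher genes among GSK343 calls in actB was 79.1%, and 65.1% after median scaling. The cause of these changes was not tested. With 19 to 196 reads a library, *Tet1* is the gene most limited by depth.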
